A study of Mus musculus with 10 samples.

Results

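The metallothionein genes Mt1 and Mt2 and the zinc transporter genes Slc30a1, Slc39a8 and Slc39a14 were followed in mouse lungs after a rise in pulmonary blood flow. They were taken by name as the metallothioneins and zinc transporters of interest, 5 of the 54532 genes in the deposited table. Wild-type (WT) C57/BL6 pups underwent laparotomy at P7, and a needle was passed from the abdominal aorta into the inferior vena cava to make a fistula in the IncPBF group (increased pulmonary blood flow). The sham group had the same operation without the puncture. Lungs were taken at P14 for bulk RNA-sequencing, with 5 lungs in each group. The methods do not say whether whole lungs or parts of them were used. No allele or drug other than the isoflurane used for surgery is named for either group, pups of both sexes were eligible, and the labels give neither sex, litter nor day of surgery. The fistula loads the whole circulation, so the groups differ by a surgical model and not by flow in the lung alone.

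Metallothioneins are small cysteine-rich proteins that bind zinc and copper and buffer free zinc in the cell. ZnT proteins (Slc30 family) move zinc out of the cytosol and ZIP proteins (Slc39 family) move it in. The transcription factor MTF1 senses zinc and binds metal response elements (MREs), and metallothioneins and ZnT1, the product of Slc30a1, are its classic targets. Metallothioneins are also induced by glucocorticoids, by IL-6 and by oxidative stress. ZIP8 (Slc39a8) and ZIP14 (Slc39a14) are related carriers that take up zinc, manganese, iron and cadmium, and ZIP14 is known from the acute phase response of the liver.

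The promoters of the 3 classic MTF1 targets are shown because the MRE links them, and capitals mark the letters of the MRE core. The core was searched on both strands as TGCACNC and as TGCGCNC, where N is any base. Each sequence is RefSeq's on GRCm38.p6 and runs along the plus strand, the strand of all 3 genes, from 250 bases before the annotated start to 50 after it. Mt1 lies at chr8:94178839-94179138, Mt2 at chr8:94172368-94172667 and Slc30a1 at chr1:191906531-191906830.
Mt1: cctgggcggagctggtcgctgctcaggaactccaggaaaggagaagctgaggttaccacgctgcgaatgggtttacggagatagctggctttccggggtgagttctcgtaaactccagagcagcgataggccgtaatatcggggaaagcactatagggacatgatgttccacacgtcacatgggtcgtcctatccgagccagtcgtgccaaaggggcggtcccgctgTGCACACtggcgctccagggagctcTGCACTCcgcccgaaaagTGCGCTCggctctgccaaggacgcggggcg
Mt2: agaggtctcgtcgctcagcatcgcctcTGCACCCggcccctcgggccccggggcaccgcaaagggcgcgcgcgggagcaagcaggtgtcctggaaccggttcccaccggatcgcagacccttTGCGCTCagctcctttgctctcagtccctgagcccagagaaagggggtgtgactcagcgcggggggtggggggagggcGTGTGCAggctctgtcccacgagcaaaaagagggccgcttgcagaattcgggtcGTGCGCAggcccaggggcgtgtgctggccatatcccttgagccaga
Slc30a1: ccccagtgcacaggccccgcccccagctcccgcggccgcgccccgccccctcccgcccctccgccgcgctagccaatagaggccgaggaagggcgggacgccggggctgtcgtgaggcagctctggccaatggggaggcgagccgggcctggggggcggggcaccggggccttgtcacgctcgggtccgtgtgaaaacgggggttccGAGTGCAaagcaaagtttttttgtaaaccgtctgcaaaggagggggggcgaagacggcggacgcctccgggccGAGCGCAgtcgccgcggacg
The core was found 3 times in the Mt1 promoter, 4 times in the Mt2 promoter and 2 times in the Slc30a1 promoter. In Mt1 all 3 cores read along the gene. The first begins 23 bases before the start, and the others lie after it, at positions 3 and 21. In Slc30a1 both read against the gene, at positions -43 and 31, and the last core of Mt2 lies at position 5. Positions count from the RefSeq start, which differs from the gene starts given below. The Mt2 gene is given there from chr8:94172664, so the last core of Mt2 lies before that start. Of all 32851 RefSeq promoters of this length, 25.7% held at least 1 core, 7.11% at least 2, 1.97% at least 3 and 0.517% at least 4. Slc39a8 has 2 annotated promoters, with 0 cores and 1 core, and a promoter was matched for 4 of the 5 genes, all but Slc39a14. The core of the antioxidant response element, searched as TGACNNNGC on both strands, was in 12.4% of all promoters, and occurred 1 time in Mt2, 1 time in Slc30a1, 1 time in the first Slc39a8 promoter and 0 times in Mt1. Such matches describe letters and not occupied sites.

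Values are FPKM, the fragments of a gene divided by the length of the gene and by the size of the library. Whole fragments could be recovered from them, with 16103423 to 20318525 on genes per lung. The lungs correlated with each other at r = 0.917 to 0.973 on the log2 scale, a correlation over genes and not over replicates. The groups also stood apart in sex-linked RNA. Xist, which is transcribed from the inactive X chromosome, was between 52.4 and 66.5 FPKM in IncPBF lungs 2 to 5 and below 0.1 FPKM in IncPBF lung 1 and all 5 sham lungs. Ddx3y, a Y-linked gene, was 18.6 FPKM in IncPBF lung 1 and 21.8 to 24.6 FPKM in the sham lungs, and at most 1 fragment fell on it in the other 4 IncPBF lungs. Sex-linked RNA and surgery could thus be told apart only through IncPBF lung 1. Results with Xist as a covariate are given for the 5 genes, and as counts of called genes for the gene lists. Values of single genes in the lists and of cell type markers are from the fit without it. In bulk tissue, fewer cells of a type and less RNA per cell cannot be told apart.

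RNA of the zinc exporter Slc30a1 and of the importer Slc39a8 was lower in IncPBF lungs. Mean Slc30a1 FPKM fell by 23.9% and mean Slc39a8 FPKM fell by 25.2% (5 lungs a group). Mt1, Mt2 and Slc39a14 did not pass the test. Thus 2 of the 5 genes were lower and 0 were higher at an adjusted p under 0.05 (limma on log2(FPKM + 0.1), Benjamini-Hochberg over 15388 genes with a mean of at least 0.5 FPKM). Neither call held when log2 Xist FPKM was added to the fit, which left 0 of the 5 called. Across all genes tested 32.3% were called, 16.1% higher and 16.2% lower, so a call in itself does not set the transporters apart. The median absolute log2 fold change of all called genes was 0.41, close to the values of these transporters.

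**Figure D1:**
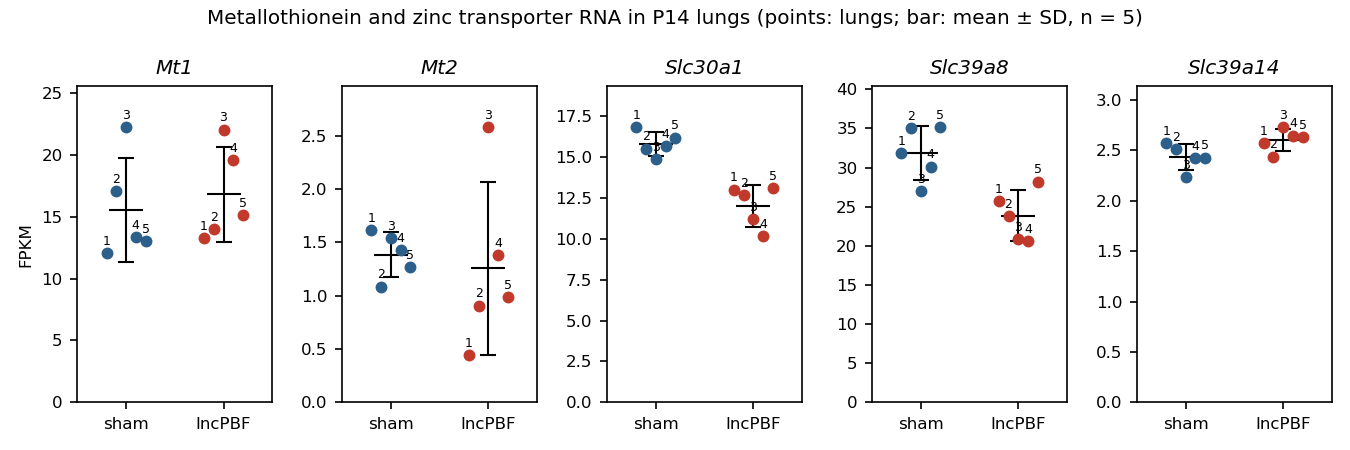
FPKM (vertical axes, each from 0) of the 5 genes in the 5 sham and 5 IncPBF lungs; numbers are the lung numbers and bars the mean ± SD. The groups separate for Slc30a1, overlap by 1 IncPBF lung for Slc39a8, and overlap for Mt1, Mt2 and Slc39a14.

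Mt1 (ENSMUSG00000031765), the metallothionein with the highest FPKM, lies at chr8:94179082-94180327 on the plus strand (GRCm38). It measured 13.2, 14.003, 22.02, 19.6 and 15.1 FPKM in IncPBF lungs 1 to 5, and 12.1, 17.04, 22.2, 13.4 and 12.998 FPKM in sham lungs 1 to 5. Lung 3 was highest in each group, and the groups overlapped over nearly their whole range. The means were 16.8 ± 3.82 and 15.5 ± 4.19 FPKM (SD, n = 5 each), with a log2 fold change of 0.12 (SE 0.18, 95% interval -0.28 to 0.53, limma adjusted p = 0.653). The exact two-sided permutation test over all assignments of the lungs to the groups gave p = 0.635, where the smallest p it can give is 0.00794. A rise of the mean beyond 0.53 on the log2 scale lies outside the interval. Counting error was small beside this spread, since 270 to 521 fragments stood behind each value and their variance was 15.0 times the mean for IncPBF and 30.3 times for sham (pure counting error gives 1).

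Mt2 (ENSMUSG00000031762), the neighbouring gene at chr8:94172664-94173568 on the plus strand, was measured from far fewer fragments. It was at 0.440, 0.907, 2.58, 1.38 and 0.983 FPKM in IncPBF lungs 1 to 5 and at 1.61, 1.08, 1.54, 1.42 and 1.27 FPKM in sham lungs 1 to 5. In the IncPBF group 3 lungs lay below every sham lung and 1, lung 3, lay above every sham lung, so the IncPBF lungs had no common direction. The means were 1.26 ± 0.810 and 1.38 ± 0.212 FPKM (SD, n = 5 each), and the log2 fold change was -0.31 (SE 0.34, 95% interval -1.06 to 0.43, limma adjusted p = 0.516; exact permutation p = 0.754). The coefficient of variation was 64.4% for IncPBF and 15.3% for sham; the difference in spread was not tested.

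The fragment counts set how much of this is measurable. Mt2 had 5, 10, 28, 14 and 12 fragments in IncPBF lungs 1 to 5 and 17, 12, 17, 16 and 13 in sham lungs 1 to 5. The exact 95% Poisson interval was 1.62 to 11.7 for the 5 fragments of IncPBF lung 1 and 18.6 to 40.5 for the 28 of IncPBF lung 3, and these intervals do not meet. Each of them overlaps the interval of every sham lung, however. The places of single IncPBF lungs below or above all sham lungs are thus uncertain. The variance of the fragments was 5.38 times their mean for IncPBF and 0.367 times for sham. The estimate for Mt2 hung on single lungs in both directions. Its log2 fold change was -0.03 without IncPBF lung 1 (limma adjusted p = 0.945) and -0.61 without IncPBF lung 3 (limma adjusted p = 0.111). An antisense gene, Gm45774, covers 432 of the 588 exonic bases of Mt2 (73.5%) and had 0 to 1 fragments in any lung, and whether the counting used the strand is not given in the sources used here. Fragments on the shared stretch may not have been assigned to Mt2, and the level of Mt2 is uncertain.

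**Figure D2:**
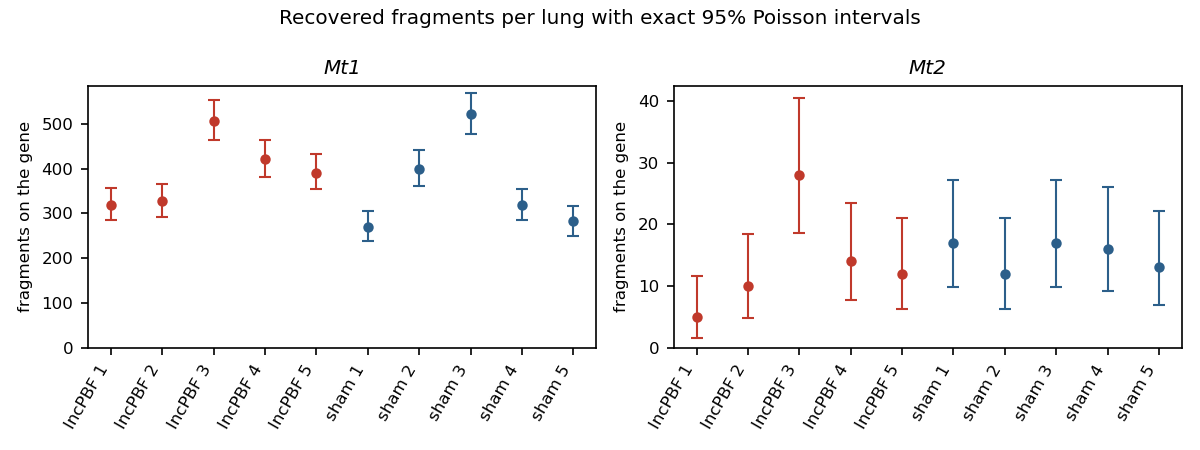
Fragments recovered per lung for Mt1 and Mt2 (vertical axes from 0), with exact 95% Poisson intervals that cover counting error only. Mt1 rests on 270 to 521 fragments per lung, Mt2 on 5 to 28, and the interval of IncPBF lung 1 for Mt2 lies below that of IncPBF lung 3.

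Mt1 FPKM exceeded Mt2 FPKM in 10 of 10 lungs, by 8.54 to 30.1 times after fistula surgery and by 7.50 to 15.7 times after sham surgery. The mean log2 ratio of Mt2 to Mt1 was -3.94 ± 0.646 in the IncPBF lungs and -3.46 ± 0.445 in the sham lungs (SD, n = 5 each). The difference of -0.48 was within the spread between lungs (exact permutation p = 0.254), and it ran from -0.69 without IncPBF lung 3 to -0.24 without IncPBF lung 1. The ratio in FPKM depends on whether fragments shared with Gm45774 were assigned to Mt2, which is not known, and on the lengths used. The table divides by all exonic bases of a gene, 1246 for Mt1, whereas its longest transcript with a consensus coding sequence has 549 bases. For Mt2 these lengths are 588 and 511 bases.

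The other metallothioneins were at the detection limit. Mt3, known as the form of the brain, had 0 to 3 fragments per IncPBF lung and 0 to 1 per sham lung, and Mt4, the form of stratified epithelium, had 0 in every lung. A count of 0 allows up to 3 fragments in a lung. Neither gene was tested. Mtf1, the zinc-sensing factor, was at 2.90 ± 0.151 FPKM in the IncPBF lungs and 3.20 ± 0.417 in the sham lungs, with a log2 fold change of -0.13 (SE 0.09, limma adjusted p = 0.303).

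Slc30a1 (ENSMUSG00000037434; chr1:191906767-191913247, plus strand) encodes ZnT1, the zinc exporter of the plasma membrane. It measured 12.99, 12.6, 11.2, 10.2 and 13.1 FPKM in IncPBF lungs 1 to 5 and 16.8, 15.5, 14.9, 15.7 and 16.2 FPKM in sham lungs 1 to 5. The highest IncPBF lung lay below the lowest sham lung, a separation that 23.2% of all genes tested also showed in one direction or the other, and that only this 1 of the 5 genes showed. The means were 12.0 ± 1.28 and 15.8 ± 0.729 FPKM (SD, n = 5 each), the log2 fold change was -0.40 (SE 0.07, 95% interval -0.56 to -0.23, limma adjusted p = 0.00235), and the exact permutation test gave the smallest p it can give, 0.00794. The log2 fold change of Slc30a1 with Xist as a covariate was -0.27 (SE 0.12, adjusted p = 0.253). Behind the values were 920 to 1582 fragments per lung. An antisense gene, 1700034H15Rik, shares 468 exonic bases (8.92%) with Slc30a1 and had 7 to 25 fragments.

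Slc39a8 (ENSMUSG00000053897; chr3:135825279-135888572, plus strand) encodes ZIP8 and had the highest FPKM of the 5 genes in 9 of 10 lungs. It measured 25.7, 23.8, 20.8, 20.6 and 28.2 FPKM in IncPBF lungs 1 to 5 and 31.9, 35.1, 27.0, 30.1 and 35.1 FPKM in sham lungs 1 to 5. The lowest sham lung, lung 3, lay below IncPBF lung 5, and the other 4 IncPBF lungs were below every sham lung. The means were 23.8 ± 3.25 and 31.8 ± 3.45 FPKM (SD, n = 5 each), with a log2 fold change of -0.42 (SE 0.10, 95% interval -0.64 to -0.20, limma adjusted p = 0.00920; exact permutation p = 0.0159). It was -0.27 with Xist as a covariate (SE 0.17, adjusted p = 0.412). Slc39a8 made up 16.4 ± 1.68% of the summed FPKM of the ZIP genes in the IncPBF lungs and 20.0 ± 1.00% in the sham lungs.

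Slc39a14 (ENSMUSG00000022094; chr14:70303469-70351425, minus strand) encodes ZIP14, the carrier closest to ZIP8. It measured 2.57, 2.44, 2.73, 2.65 and 2.63 FPKM in IncPBF lungs 1 to 5 and 2.57, 2.51, 2.24, 2.42 and 2.43 FPKM in sham lungs 1 to 5. The groups overlapped within a narrow range, and 3 IncPBF lungs lay above every sham lung. The means were 2.60 ± 0.109 and 2.43 ± 0.127 FPKM (SD, n = 5 each), with a log2 fold change of 0.09 (SE 0.07, 95% interval -0.06 to 0.24, limma adjusted p = 0.319). Its call depended on the method. The exact permutation test on FPKM gave an unadjusted p = 0.0476, and limma-voom on the recovered fragments, which scales each lung to its total, gave a log2 fold change of 0.18 (adjusted p = 0.0403).

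The fits that allow for sex-linked RNA rest mainly on IncPBF lung 1. With Xist as a covariate 741 of all 15388 genes tested were called, against 4970 without it. In the lungs with Xist under 1 FPKM, which sets IncPBF lung 1 against the 5 sham lungs, the log2 fold changes were -0.28 for Slc30a1 (SE 0.10) and -0.30 for Slc39a8 (SE 0.16). With 1 lung in that arm only 154 genes were called, so that a missing call there says little, and the adjusted p were 0.238 and 0.390. IncPBF lung 1, at 12.99 FPKM of Slc30a1 and 25.7 FPKM of Slc39a8, was below every sham lung for both genes. In the same 2 fits Mt1 changed sign, to -0.23 (adjusted p = 0.719) and -0.19 (adjusted p = 0.791). Mt2 stood at -1.46 (adjusted p = 0.0784) and -1.45 (adjusted p = 0.0703), values that rest on the 5 fragments of IncPBF lung 1.

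**Figure D3:**
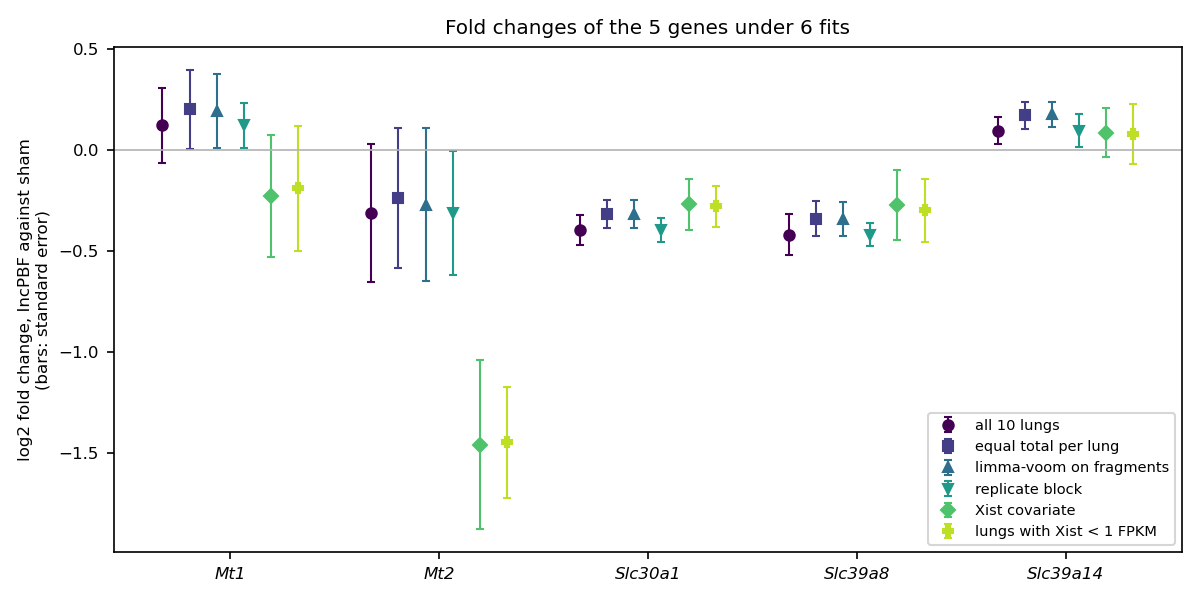
Log2 fold changes, IncPBF against sham (vertical axis; bars are standard errors), of the 5 genes under 6 fits. Slc30a1 and Slc39a8 stay below 0 throughout, between -0.42 and -0.27, Mt1 crosses 0, and Mt2 moves to about -1.46 when the contrast rests on IncPBF lung 1.

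RNA of the markers of some cell types moved with the groups as well. All 5 markers of alveolar type 1 cells were lower in IncPBF, and their summed FPKM was 864 to 904 for IncPBF against 1094 to 1428 for sham. Of the 5 endothelial markers 3 were lower (892 to 948 against 926 to 1201 summed FPKM), and of the 5 alveolar type 2 markers 3 were lower (10713 to 13190 against 12798 to 15965). Of the 5 smooth muscle markers 3 were higher (286 to 539 against 104 to 225), and of the 5 erythroid markers 3 were lower (251 to 1927 against 1458 to 2442). Among all genes tested 16.2% were lower and 16.1% higher. Fibroblast markers were mixed, with 2 of 5 higher and 1 lower, and 1 of the 2 tested hepatocyte markers was lower. Among the ciliated, secretory, macrophage, neutrophil, lymphocyte and cardiac muscle markers 0 were called. Summed secretory FPKM ran from 5016 to 10643.5 for IncPBF and, more widely, from 140 to 12529 for sham. No marker in these lists was at 0 in every lung. All marker calls are from the fit without Xist as a covariate, in which 4970 genes were called, against 741 with it. The part of these cell types in the fall of Slc30a1 and Slc39a8 was not tested.

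Within each group Mt1 ran in opposite order to Slc30a1 and Slc39a8 over some of the lungs. In the IncPBF group lungs 3 and 4 had the highest Mt1 and Mt2 FPKM and the lowest Slc30a1 and Slc39a8 FPKM. Slc39a14 FPKM was also highest in IncPBF lungs 3 and 4, at 2.73 and 2.65, and so ran with Mt1 there. In the sham group lung 3 had the highest Mt1 FPKM and the lowest Slc30a1, Slc39a8 and Slc39a14 FPKM, but not the highest Mt2 FPKM, and the order of the 5 sham lungs by Mt1 (3, 2, 4, 5, 1 from the highest) was the reverse of their order by Slc30a1. This is a description of 10 lungs with no test.

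Compared per length, the 5 genes kept a steep order of levels. FPKM over all exonic bases put Mt1 above Slc30a1 in 5 of 5 IncPBF and 2 of 5 sham lungs, so these neighbours did not differ beyond their spread in the sham group. Per kilobase of the longest transcript with a consensus coding sequence, the order was Slc39a8, Mt1, Slc30a1, Slc39a14 and Mt2. On that scale Mt1 exceeded Slc30a1 in 10 of 10 lungs, Slc39a8 exceeded Mt1 in 9 of 10, and Slc39a14 exceeded Mt2 in 10 of 10. The place of Mt2 is uncertain, since fragments shared with Gm45774 may not have been assigned to it. The sham means on that scale were 69.1 ± 7.49 for Slc39a8, 35.3 ± 9.50 for Mt1, 15.8 ± 0.729 for Slc30a1, 5.21 ± 0.271 for Slc39a14 and 1.59 ± 0.244 for Mt2. The IncPBF means were 51.7 ± 7.06, 38.1 ± 8.67, 12.0 ± 1.28, 5.58 ± 0.233 and 1.45 ± 0.932 in the same order (SD, n = 5 each).

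The wider zinc transporter families changed in few members. Of the 10 ZnT genes 7 could be tested, 1 was lower, Slc30a1, and 0 were higher, with a median log2 fold change of -0.03. Slc30a5, an exporter of the secretory pathway and next to Slc30a1 in abundance, was at 10.1 ± 0.674 and 10.03 ± 0.550 FPKM (log2 fold change 0.01, adjusted p = 0.881). Of the 14 ZIP genes 12 could be tested, 3 were lower and 1 was higher, with a median of 0.03; the median of all genes tested was 0.01. In both families together 5 of 19 tested genes were called (26.3%), against 32.3% of all genes.

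Slc39a4, whose product ZIP4 takes up dietary zinc in the gut, fell most in this family, from 12.3 ± 1.30 FPKM in the sham lungs to 8.43 ± 0.872 FPKM in the IncPBF lungs without overlap (log2 fold change -0.54, SE 0.09, limma adjusted p = 0.000925). Slc39a3, which encodes the plasma membrane importer ZIP3, fell from 14.2 ± 1.52 to 11.4 ± 0.873 FPKM, also without overlap (-0.31, SE 0.08, adjusted p = 0.0114). Slc39a6 was the 1 importer that rose, from 16.1 ± 1.45 to 18.7 ± 1.12 FPKM (0.21, SE 0.07, adjusted p = 0.0370), and this call was lost with no filter on low genes, with no trend in the fit, and on leaving out IncPBF lung 1, 2, 3 or 5 or sham lung 1, 3 or 4. Slc39a1, the most abundant ZIP gene, was at 41.0 ± 0.610 and 44.4 ± 3.22 FPKM (-0.11, adjusted p = 0.129). The 13 other ZnT and ZIP genes that were tested and not called, Slc39a14 aside, had log2 fold changes from -0.13 to 0.18. With Xist as a covariate 0 genes of either family were called.

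**Figure D4:**
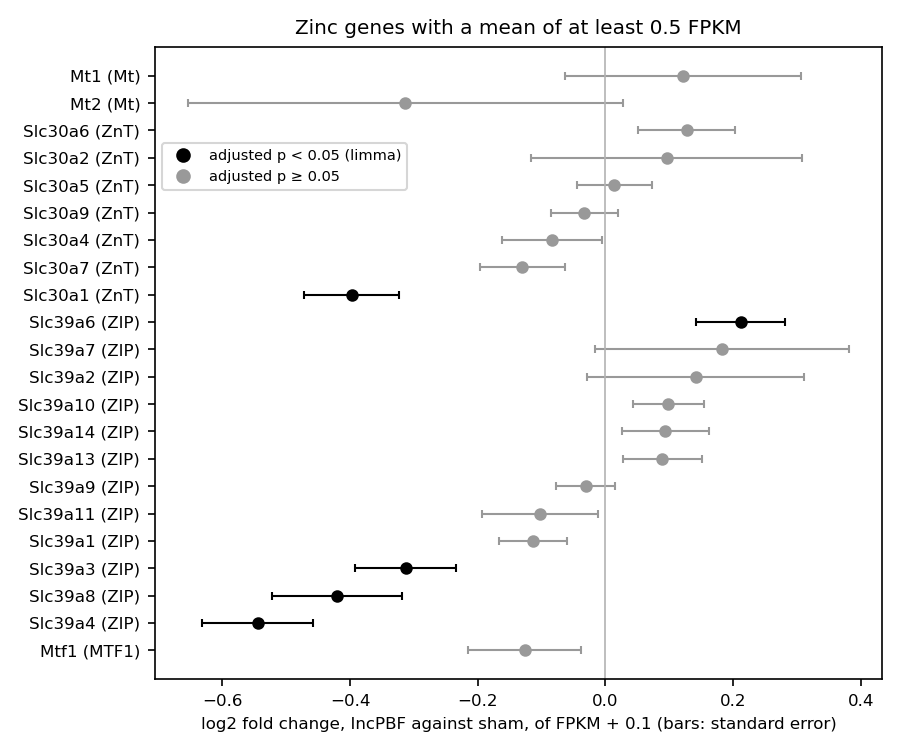
Log2 fold changes, IncPBF against sham, of log2(FPKM + 0.1) (horizontal axis; bars are standard errors) for the metallothionein, ZnT and ZIP genes tested and Mtf1. Black points passed an adjusted p of 0.05 (limma); 4 of the 5 black points lie below 0, and Mt2 has the widest error.

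The closest profiles differed between the 5 genes. Likeness was measured as the mean absolute difference over the 10 lungs between centred log2(FPKM + 0.1) profiles, so that 0 is identity. Slc30a1 was nearest to Ipmk (0.0276), Zc3hav1 (0.0386) and Arid4a (0.0418), and Slc39a8 to Scn3b (0.0476), Plekhb2 (0.0537) and Smad9 (0.0559). Slc30a1 and Slc39a8 differed from each other by 0.0889, which ranked Slc30a1 at 87 among the tested genes nearest to Slc39a8, and Slc39a8 at 359 among those nearest to Slc30a1.

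Mt1 was nearest to Ptges3l (0.0838), Sp5 (0.118) and Cisd3 (0.119). Slc39a14 was nearest to Baz1b (0.0352), Eif3b (0.0363) and Naif1 (0.0374), and Mt2 to Gm47720 (0.231), AC238676.1 (0.240) and Gm11611 (0.243). Mt1 and Mt2 differed by 0.415, with 12351 of the tested genes closer to Mt1 than Mt2 was and 2755 closer to Mt2 than Mt1 was. Of the other 4 genes, Mt1 was the nearest to Mt2 and Slc39a14 the nearest to Mt1, though 3984 tested genes were closer to Mt1 than Slc39a14 was. The small number of Mt2 fragments widens the distance between Mt1 and Mt2 by counting error alone.

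Lists of genes linked to the known inducers of metallothioneins, some that respond and some that carry the signal, were set beside Mt1 and Mt2. They were chosen with the fall of glucocorticoid-responsive genes in these lungs already known, so their directions are not independent evidence. Of the 12 glucocorticoid targets 9 were lower and 0 higher, where 16.2% of all genes tested were lower, with a median log2 fold change of -0.77 (0.01 over all genes). Fkbp5, a co-chaperone of the glucocorticoid receptor, fell from 11.1 ± 2.56 to 1.67 ± 0.189 FPKM (-2.63, SE 0.15, adjusted p = 2.73e-06), and Tsc22d3, which encodes the mediator GILZ, fell from 147 ± 27.7 to 47.4 ± 7.41 FPKM (-1.63, SE 0.14, adjusted p = 2.37e-05). The 3 targets that did not pass, named here after their values were seen, were Sgk1 (0.33, adjusted p = 0.0516), Dusp1 (0.21, adjusted p = 0.542) and Ddit4 (-0.52, adjusted p = 0.0784). Mt1, a target of the same hormones, was at 0.12.

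Of the 11 IL-6 and acute phase genes 6 were lower and 0 higher, against the same 16.2% of all genes, with a median of -0.34. All 11 are named here, after their values were seen. The lower genes were the receptor genes Il6ra, Il6st and Osmr, the signal carrier Stat3, Cebpd and Serpina3n. The 5 that did not pass went both ways: Socs3 (0.16), Saa3 (0.28), Hp (0.42), Cebpb (-0.08) and Lcn2 (-0.35), at limma adjusted p from 0.0778 to 0.649. Cebpd, which encodes a transcription factor of the acute phase response, fell from 26.6 ± 3.86 to 12.7 ± 1.19 FPKM (-1.05, SE 0.10, adjusted p = 4.99e-05). Of the 9 tested genes of the NRF2 oxidative stress list 3 were higher and 1 was lower, against 16.1% and 16.2% of all genes, with a median of 0.22. With IncPBF lung 2 or 4 or sham lung 1 or 5 left out, 1 gene of this list was higher. Txnrd1, a thioredoxin reductase, rose from 10.7 ± 0.646 to 13.6 ± 0.675 FPKM (0.34, SE 0.06, adjusted p = 0.00115), and Osgin1, an oxidative stress-induced growth inhibitor, fell from 3.45 ± 0.719 to 2.22 ± 0.255 FPKM (-0.59, SE 0.14, adjusted p = 0.00818). With Xist as a covariate 5 glucocorticoid targets, 2 IL-6 and acute phase genes and 0 NRF2 genes were called lower, and 0 NRF2 genes were called higher.

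**Figure D5:**
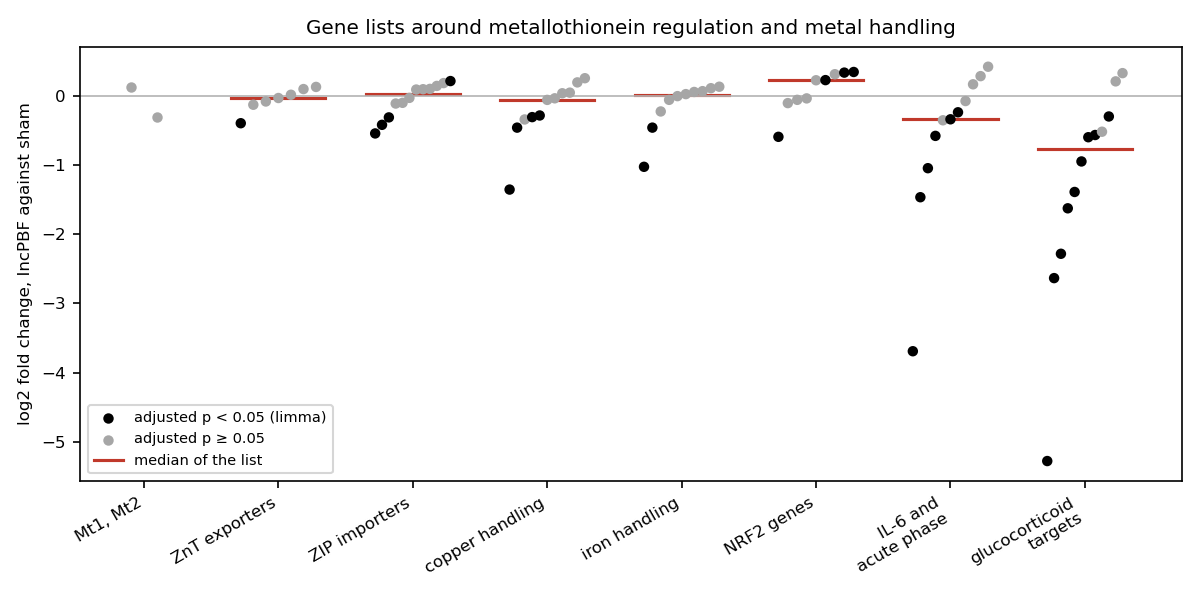
Log2 fold changes, IncPBF against sham (vertical axis), of Mt1 and Mt2 and of the tested genes in 7 lists; black points passed an adjusted p of 0.05 (limma) and red lines are medians. The glucocorticoid list has the lowest median, -0.77, while Mt1 and Mt2 lie at 0.12 and -0.31.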

How the data were processed

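Bulk RNA-sequencing libraries of P14 lungs (5 IncPBF, 5 sham) were made with a NEBNext kit. The authors deposited 1 table of FPKM values per gene and lung, with the gene length behind them. The submitters' processing notes name Bowtie 0.12.2 and the builds GRCm38, mm10 and hg38 without roles; the counting software is not given in the sources used here. Coordinates matched GENCODE M21 on GRCm38 for 98.3% of 54409 shared genes. The headers of the IncPBF columns abbreviate the group in another way than the titles do, and the columns were assigned to the group, keeping the numbers in the headers, since the other 5 columns are named sham.

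Multiplied by gene length, 100% of the values in a lung were whole multiples of a common step (tolerance 0.02 fragments), which gave back whole fragments, 16103423 to 20318525 per lung. The authors' library sizes were 0.958 to 1.07 times these totals. Fragments carry no molecular identifiers, so intervals cover counting error only. Genes with a mean of at least 0.5 FPKM (15388) were fitted as log2(FPKM + 0.1) in limma 3.58.1 (lmFit and trended eBayes) in R 4.3.3, all 10 lungs, no covariate; a fold change on this scale understates the change of low genes. P-values measure the spread between these lungs, which the labels do not describe further than as separate samples. Single values were compared by exact permutation with scipy 1.17.1, and figures drawn with matplotlib 3.10.9. The fit was run on simulated fragments with known changes, the same dispersion for every gene and no difference in sex-linked RNA between the groups. That run therefore cannot show how the calls here fare under such a difference.

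The 5 genes and the lists were chosen with earlier results of these data known. Named were the 5 genes, Mt3, Mt4 and Mtf1, from each other list up to 4 called genes with the largest change and up to 2 of highest FPKM (examples are given), the 3 most alike genes per gene, and Xist and Ddx3y; Gm45774 and 1700034H15Rik were added because they overlap members. Alternatives were the pseudocount (1, 0.01), the filter (1 FPKM, none), the scaling (equal total, median centring, quantile), limma-voom on fragments, no trend, an exact permutation test, a replicate block, Xist as a covariate, lungs with Xist under 1 FPKM, and each lung left out. Batch and litter were not analysed here.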

Additional observations from a re-analysis of the deposited data

How the results depend on the processing

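The directions of Slc30a1 and Slc39a8 were the same in every fit run, and their calls were lost only in those that allow for Xist. With each lung left out in turn, the log2 fold change ran from -0.43 to -0.34 for Slc30a1, from -0.48 to -0.37 for Slc39a8, from 0.02 to 0.26 for Mt1, from -0.61 to -0.03 for Mt2 and from 0.06 to 0.12 for Slc39a14, with no change of a call. Counts of called genes ran from 0 to 1 higher ZIP genes, 1 to 4 higher NRF2 genes, 0 to 1 higher and 7 to 10 lower glucocorticoid targets, and 0 to 1 higher and 2 to 3 lower iron genes. The lungs whose omission gave 1 higher glucocorticoid target were IncPBF lung 5 and sham lungs 1 and 2, and for 1 higher iron gene sham lung 4. With Xist as a covariate, the values were -0.23 for Mt1, -0.27 for Slc30a1 and -0.27 for Slc39a8, with 0 of the 5 genes, 0 ZnT genes, 0 ZIP genes in either direction, 1 copper gene, 1 iron gene, 5 glucocorticoid targets, 2 IL-6 genes and 0 NRF2 genes lower, and 0 NRF2 genes higher. In the lungs with Xist under 1 FPKM, the values were -0.19 for Mt1, -0.28 for Slc30a1 and -0.30 for Slc39a8, with 0 of the 5 genes, 0 ZnT, 0 ZIP (either direction), 0 copper and 0 iron genes, 3 glucocorticoid targets, 1 IL-6 gene and 0 NRF2 genes lower, and 0 NRF2 genes higher; only 1 IncPBF lung enters there, assumed to vary like the sham lungs. With limma-voom, Slc39a14 was called at 0.18, giving 1 of the 5 genes higher, and 3 ZIP genes, 1 copper gene and 1 glucocorticoid target were higher. By permutation of FPKM, Slc39a14 had an unadjusted exact p = 0.0476 at a log2 ratio of means of 0.10, which is not a call on adjusted p. With an equal total per lung, 2 ZIP genes, 1 copper gene and 1 glucocorticoid target were higher; with no filter or with no trend, 0 ZIP genes were; with a filter at 1 FPKM or quantile normalization, 1 glucocorticoid target was.

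An equal total per lung shifted the median log2 fold change of all genes from 0.01 to 0.09, and raised the share of higher genes among the called ones from 49.9% to 66.6%; limma-voom gave 66.1%. With Xist as a covariate 741 genes were called, and 154 in the lungs with Xist under 1 FPKM, against 4970 with all 10 lungs and no covariate. Lungs of the same number correlated at -0.0675 to 0.0854 in their deviations from the group means, and 2 of 5 IncPBF lungs correlated best with their own number. These values do not show a pairing by number, and with 5 lungs a group they cannot exclude one. The replicate block gave 4872 called genes and changed no call of the 5 genes (adjusted p = 0.00354 for Slc30a1 and 0.00227 for Slc39a8). Depth limits Mt2 most, at 5 to 28 fragments per lung.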

Other observations

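Copper is the other metal that metallothioneins bind. Of the 11 tested genes of the 12 in the copper list 4 were lower and 0 higher, with a median log2 fold change of -0.06. Of all genes tested 32.3% were called and 16.2% were lower. Atp7b, a copper-exporting ATPase, fell from 9.23 ± 1.83 FPKM in the sham lungs to 3.54 ± 0.629 FPKM in the IncPBF lungs (SD, n = 5 each; log2 fold change -1.36, SE 0.15, limma adjusted p = 8.67e-05). Slc31a1, the copper importer CTR1, fell from 26.3 ± 1.62 to 19.1 ± 1.36 FPKM (-0.46, SE 0.06, adjusted p = 0.000315), and Slc31a2 fell from 20.1 ± 1.88 to 16.4 ± 0.816 FPKM (-0.29, SE 0.07, adjusted p = 0.00858), all 3 without overlap, as 23.2% of all genes tested were. Cp, which encodes the copper protein ceruloplasmin, fell from 20.2 ± 1.11 to 16.4 ± 1.89 FPKM (-0.31, SE 0.08, adjusted p = 0.0107). Atox1, the copper chaperone and the most abundant gene of the list, was at 65.4 ± 4.39 and 57.5 ± 7.33 FPKM in the IncPBF and sham lungs (0.19, adjusted p = 0.121).

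Of the 10 tested genes of the 11 in the iron list 2 were lower and 0 higher, near the 16.2% of all genes, with a median of 0.01. Steap3, a reductase of endosomal iron, fell from 4.38 ± 0.838 to 2.07 ± 0.184 FPKM (-1.03, SE 0.13, adjusted p = 0.000257). Fth1, the heavy chain of ferritin, fell from 1067 ± 48.6 to 775 ± 22.5 FPKM (-0.46, SE 0.07, adjusted p = 0.000662), while Ftl1, the light chain, was at 320 ± 29.5 and 333 ± 39.2 FPKM in the sham and IncPBF lungs (0.05, adjusted p = 0.686). With Xist as a covariate 1 copper gene and 1 iron gene were called lower. The methods describe a saline rinse of the pulmonary vessels before fixation and do not say whether the lungs for RNA had it. The erythroid markers summed to 251 to 1927 FPKM for IncPBF against 1458 to 2442 FPKM for sham, and their part in these values was not tested.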
